A study of Mus musculus with 10 samples.

Results

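The stefin A cluster is a group of closely related mouse genes on chromosome 16 that encode inhibitors of cysteine proteases. The 8 genes described here were 7 members of that cluster (BC100530, BC117090, Stfa1, Stfa2, Stfa2l1, Stfa3 and Gm5483) and Cstb, the gene of stefin B, on chromosome 10. They were found by their symbols in GENCODE M21 among 55385 mouse genes with counts. The family was chosen by the levels of BC100530 in these libraries, which had been seen to be lower in treated Sox2Hi than in treated control tumours, so the members' values below are a description. No p-value is given for a single member, and counts of members past the edgeR threshold are set beside the share of all genes past it, with nothing read from them. RNA was sequenced in bulk from Tomato+ neutrophils of squamous cell carcinomas (SCC) grafted on CatchupIVM-red mice, in which a Cre at the neutrophil gene Ly6g turns on the red fluorescent protein Tomato. Every host carried this reporter, so the sort took cells that had used the Ly6g locus. The grafts were Sox2low control cells, the parental line, or Sox2Hi cells, and the mice were naive or had received anti-PDL1/CD40 agonist once tumours were established. The deposited column names mark every library C57 and the control libraries GFP. There were 3 naive control, 2 treated control, 3 naive Sox2Hi and 2 treated Sox2Hi libraries. The labels do not say whether replicates came from separate mice, so tests measure only the spread between these libraries.

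Stefins are small proteins that stay inside the cell and block papain-like proteases, such as the lysosomal cathepsins B, H, L and S, by filling their active-site cleft. Humans have a single stefin A gene, whereas the mouse has an array of copies, and the mouse copies are known from myeloid cells and from epidermis. Stefin B is made in most cell types, and its loss in humans causes a progressive myoclonus epilepsy.

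The cluster members lie between positions 36156811 and 36455392 of chromosome 16 (GRCm38), a span of 298.6 kb, and Cstb at 78425669 to 78427622 of chromosome 10. Stfa2l1, Gm5483 and Stfa1 are on the plus strand, and BC117090, BC100530, Stfa2 and Stfa3, which follow them along the chromosome, are on the minus strand. Each member has 3 exons in its coding transcript. The coding sequence is 291 b long in BC117090, 294 b in BC100530 and Gm5483, 297 b in Cstb, 312 b in Stfa2, Stfa2l1 and Stfa3, and 387 b in Stfa1. A promoter window from 250 bases before the start was matched in RefSeq (GRCm38.p6) for 6 of the 8 members. The stretches below are shown because they let a reader see how alike the copies are near their RefSeq starts. They read 5′ to 3′ on the gene's strand, and the capitals mark the longest run of letters found in all 6 windows, a box of 13 bases.
Stfa2l1 (chr16:36156735-36156795, plus strand): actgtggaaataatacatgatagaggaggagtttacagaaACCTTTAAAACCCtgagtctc
Gm5483 (chr16:36184140-36184200, plus strand): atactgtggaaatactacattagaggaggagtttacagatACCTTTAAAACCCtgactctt
Stfa1 (chr16:36277075-36277135, plus strand): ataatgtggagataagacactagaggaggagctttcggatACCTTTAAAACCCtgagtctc
BC100530 (chr16:36367562-36367622, minus strand): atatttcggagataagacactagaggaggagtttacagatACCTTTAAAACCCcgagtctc
Stfa2 (chr16:36408375-36408435, minus strand): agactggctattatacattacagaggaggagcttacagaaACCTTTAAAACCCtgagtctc
Stfa3 (chr16:36455406-36455466, minus strand): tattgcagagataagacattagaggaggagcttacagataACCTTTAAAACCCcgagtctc

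The box, chosen after the sequences had been read, began 32 to 36 bases before the RefSeq start in 5 members and 12 bases before it in BC100530, whose printed stretch runs past that start. The stretches of Stfa1, BC100530 and Stfa2 lie inside these genes as placed by GENCODE M21, where transcription begins at 36276951, 36367748 and 36408457. On either strand the box was in 9 of the 32851 RefSeq windows, all 9 on chromosome 16: those of the 6 members, of Gm5416 and of the related genes Cstdc3 and Gm7260, the latter with 0 to 4 counts per library. The window of 2010005H15Rik, a neighbouring gene that was also higher after treatment, held neither the box nor its core nor GAGGAA. Csta1, a neighbour whose treatment changes were not called, held GAGGAA and no box, and Gm5416, which was higher after treatment, held the box and no GAGGAA. Its core TTTAAAA was in 8.74% of all windows. The letters GAGGAA, which form the core of sites for the myeloid factor PU.1 and other ETS proteins, were in all 6 members' windows against 28.3% of all windows. A C/EBP pattern, TTGCNNAA, was in 2 of the 6 windows (10.8% of all), those of BC100530 and Stfa1. The STAT pattern TTCNNNGAA was in that of Gm5483 (8.30% of all) and the AP-1 pattern TGANTCA in that of Stfa3 (7.81% of all). Neither TATAAA (13.6% of all) nor the core of the interferon-stimulated response element (3.44% of all) was found in the 6 windows. Each pattern was searched on both strands, and the 6 windows resemble each other, so they are not independent.

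Because the copies are alike, a read can fit more than 1 of them, and single values are uncertain. Of all stretches of 31 bases in a gene's transcripts, the share found in no other annotated gene was 48.2% in BC100530, 49.3% in BC117090, 56.2% in Stfa1, 58.4% in Stfa2l1, 66.7% in Stfa2 and 78.4% in Gm5483. It was 100% in Stfa3 and in Cstb. The closest coding sequences among the members were those of Stfa2 and Stfa2l1 (96.5% identical) and of BC100530 and BC117090 (95.9%). Gm5483 was 96.9% identical to 2010005H15Rik, a neighbouring gene of the cluster that was not on the list of members. Cstb was 54.2 to 64.6% identical to the cluster members. Values of the summed cluster are less affected by reads divided between its copies, although reads can still move between the sum and the neighbours.

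Library totals ran from 13815734 to 22986193 counts. Levels are given as CPM, counts scaled to a common library size with TMM factors from the 11274 genes that averaged 5 CPM or more, here called the expressed-gene scaling, and 6 of the 8 members passed that filter. BC117090 and Stfa3 did not and were fitted only under the all-gene scaling, which used 29648 genes. TMM factors were 0.710 and 0.725 in the treated control libraries and 0.873 to 1.22 in the others, and fold changes involving treated control libraries depended on the scaling and the genes tested. After treatment of control tumours 3231 genes were called higher and 3137 lower, against 1263 and 6238 with library totals alone. Between treated tumours 1331 were higher and 1140 lower in Sox2Hi, against 2761 and 192 with library totals alone. Under the all-gene scaling, which also tested more genes, they were 1226 and 2853. The 12 neutrophil marker genes on a fixed list (Il1r2, S100a8, S100a9, Ly6g and others) summed to 13102 to 21420 CPM in naive control, 42845 to 45282 CPM in treated control, 12713 to 18715 CPM in naive Sox2Hi and 21862 to 22024 CPM in treated Sox2Hi, and none was at 0 in every library. Ly6g itself ran from 1.62 to 3.26 CPM in naive and from 5.45 to 18.3 CPM in treated libraries. Transcripts of other cells were also present: the 16 keratinocyte markers summed to 874 to 3249 CPM and the 12 macrophage and dendritic cell markers to 7225 to 23445 CPM. Markers of mast cells (3 of 3 fitted, median -4.04), of fibroblasts and endothelium (5 of 6, -2.03) and of erythroid cells (3 of 4, -2.22) were called lower after treatment of control tumours, as were 3 of 6 fibroblast and endothelial and 4 of 4 erythroid markers in Sox2Hi tumours. Of T and NK cell markers 2 of 4 fitted were called higher in control (median 1.36) and 1 in Sox2Hi tumours, and the list summed to 21.9 to 72.1 CPM in naive and 65.6 to 202 CPM in treated libraries. B and plasma cell markers summed to 3829 CPM in naive Sox2Hi replicate 2 and to 160 to 1144 CPM elsewhere. The part of these cells in the members' changes was not tested. In bulk RNA, fewer cells of a type and less RNA per cell cannot be told apart.

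Gm5483 had the most counts of the cluster in every library. Its level was 103, 77.5 and 59.1 CPM in naive control, 921 and 777 CPM in treated control, 118, 58.0 and 51.1 CPM in naive Sox2Hi, and 267 and 255 CPM in treated Sox2Hi. Both treated groups lay above both naive groups, and the treated control libraries lay above the treated Sox2Hi ones.

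Stfa2l1, a copy of Stfa2, was the next by counts, at 36.1, 30.2 and 21.5 CPM in naive control, 510.5 and 385 CPM in treated control, 37.9, 19.6 and 18.7 CPM in naive Sox2Hi, and 140.2 and 147 CPM in treated Sox2Hi. Stfa2 itself was much lower, at 1.92, 0.913 and 1.32 CPM in naive control, 45.5 and 37.8 CPM in treated control, 1.81, 1.04 and 0.689 CPM in naive Sox2Hi, and 10.6 and 11.5 CPM in treated Sox2Hi. The order of the groups was that of Gm5483 in both genes, with no overlap between naive and treated libraries.

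Stfa1 was at 13.3, 12.4 and 6.30 CPM in naive control, 224 and 216 CPM in treated control, 10.8, 6.81 and 4.28 CPM in naive Sox2Hi, and 69.1 and 62.2 CPM in treated Sox2Hi. Its treated replicates lay close together in both grafts. BC100530, which RefSeq names Cstdc5, was at 13.6, 4.50 and 13.96 CPM in naive control, 327 and 174 CPM in treated control, 8.31, 4.39 and 3.25 CPM in naive Sox2Hi, and 54.6 and 31.4 CPM in treated Sox2Hi. It spread more between replicates than Stfa1 in both treated groups. An antisense gene, Gm15845, overlaps its first exon and had 2 to 22 counts per library against 66 to 4387 for BC100530.

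Stfa3 was at 2.76, 0.391 and 2.94 CPM in naive control, 20.8 and 6.12 CPM in treated control, 0.831, 0.494 and 0.246 CPM in naive Sox2Hi, and 2.36 and 1.28 CPM in treated Sox2Hi. Its treated Sox2Hi libraries fell within the range of its naive control ones. BC117090 had only 4, 1 and 4 counts in naive control, 36 and 39 in treated control, 8, 4 and 0 in naive Sox2Hi, and 11 and 8 in treated Sox2Hi. The library with no count allows up to 0.148 CPM (3 counts), which covers counting error only.

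Cstb was abundant everywhere, at 639.7, 602 and 572 CPM in naive control, 1097 and 1602 CPM in treated control, 596, 529 and 507 CPM in naive Sox2Hi, and 492 and 867 CPM in treated Sox2Hi. Its treated Sox2Hi libraries lay on either side of the naive ones, and the naive levels of the grafts overlapped.

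**Figure D1:**
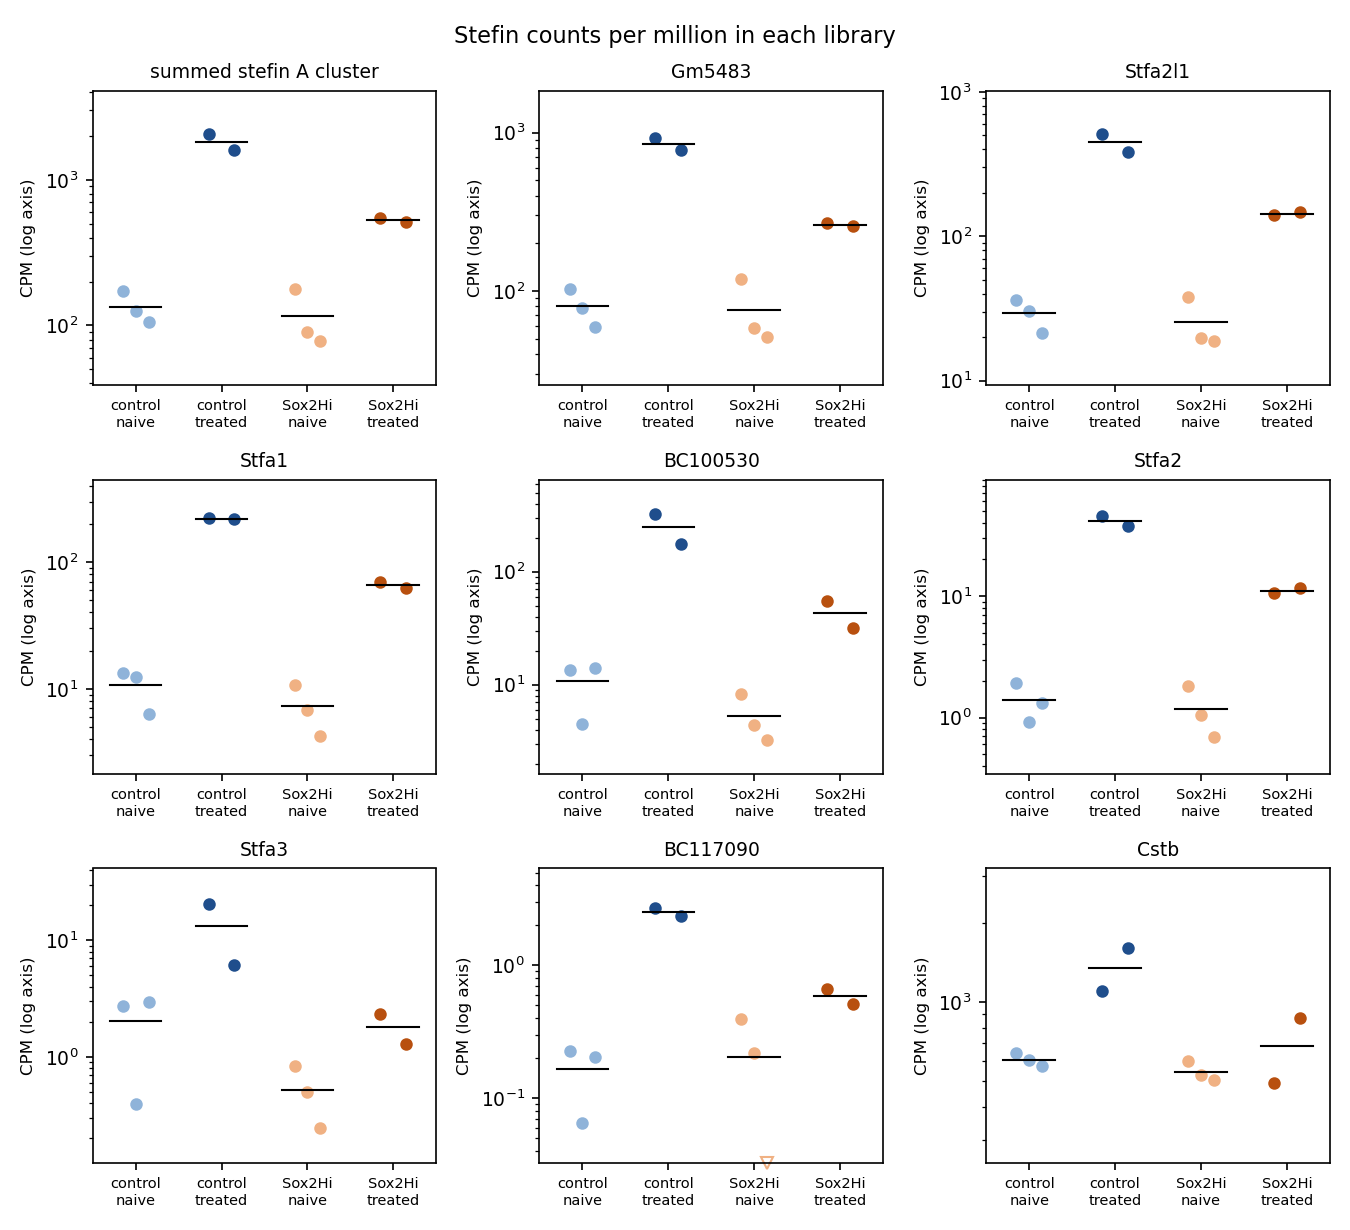
CPM of the summed cluster and of each of the 8 genes (vertical log axes, each panel with its own range) in the 10 libraries, with 1 point per library and a line at the group mean; the open triangle in the BC117090 panel stands for the library with 0 counts. Treated libraries lie above naive libraries of the same graft in each panel except Cstb, where the treated Sox2Hi libraries, at 492 and 867 CPM, lie on either side of the naive Sox2Hi ones.

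Per kb of exon, which allows levels of different genes to be compared, stefin B was the most abundant of the 8 in every library. In treated control libraries it reached 1820.0 and 2657 CPM per kb, followed by Stfa2l1 at 1218 and 919 and Gm5483 at 495 and 417. Next came BC100530 at 413 and 220.2 CPM per kb and Stfa1 at 315 and 305, neighbours in this order whose libraries overlapped. Stfa2 (96.6 and 80.3), Stfa3 (50.4 and 14.9) and BC117090 (6.92 and 6.05 CPM per kb) were lowest and did not overlap each other. In naive control libraries Cstb was at 948 to 1061 CPM per kb, whereas Stfa2l1 was at 51.4 to 86.2 and Gm5483 at 31.8 to 55.4. The annotated exons of Gm5483 add up to 1862 b against 387 to 790 b in the other members, which lowers its value per kb.

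After treatment of control tumours, all 7 stefin A genes and Cstb were higher, the cluster members by 6.62 to 30.1 times and Cstb by 2.23 times. The summed cluster went from 134 ± 33.6 CPM in naive control (SD, n = 3) to 1825 ± 319.6 CPM in treated control (SD, n = 2), a 13.6-fold higher mean. The fitted log2 fold change was 4.90 (SE 0.35) in Stfa2, 4.54 (SE 0.52) in BC100530 and 4.37 (SE 0.37) in Stfa1. It was 3.94 (SE 0.32) in Stfa2l1, 3.41 (SE 0.34) in Gm5483 and 1.16 (SE 0.24) in Cstb. The means of Stfa3 and BC117090 were 6.62 and 15.3 times higher, and that of Stfa3 was 3.01 times higher without treated control replicate 1 and 10.2 times without replicate 2. All 8 genes had no overlap between treated control and naive control libraries, against 34.1% of the 11274 genes higher without overlap. All 6 fitted members were called higher by edgeR's quasi-likelihood test, as were 28.7% of all genes, and their median log2 fold change was 4.15 against -0.051 over all genes. Under the all-gene scaling 8 of 8 were called higher, as were 18.7% of 29648 genes. Without treated control replicate 2, Cstb was at 0.72 and no longer called. The 12 neutrophil markers moved the same way, with all 12 called higher and a median of 1.57.

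In Sox2Hi tumours the treatment response of the cluster was in the same direction and the fold changes were smaller. The summed cluster was at 116 ± 54.6 CPM in naive Sox2Hi (SD, n = 3) and 527 ± 24.7 CPM in treated Sox2Hi (SD, n = 2), a 4.55-fold higher mean. Fitted log2 fold changes were 3.22 (SE 0.35) in Stfa2, 3.17 (SE 0.36) in Stfa1 and 3.01 (SE 0.51) in BC100530. They were 2.50 (SE 0.31) in Stfa2l1 and 1.78 (SE 0.33) in Gm5483, and 0.32 (SE 0.24) in Cstb, which was not called. The means of Stfa3 and BC117090 were 3.47 and 2.89 times higher, the latter 5.36 times without naive Sox2Hi replicate 1. There was no overlap between treated and naive libraries in 7 of the 8 genes, all but Cstb, against 32.5% of genes higher without overlap. Of the 6 fitted members, 5 were called higher, as were 11.8% of all genes. Under the all-gene scaling 5 of 8 were, all but Stfa3, BC117090 and Cstb, against 1.79% of genes. Gm5483 was not called without treated Sox2Hi replicate 2 (1.81), and Cstb was at -0.16 there. Of the 12 neutrophil markers, 5 were called higher, with a median of 0.64.

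**Figure D2:**
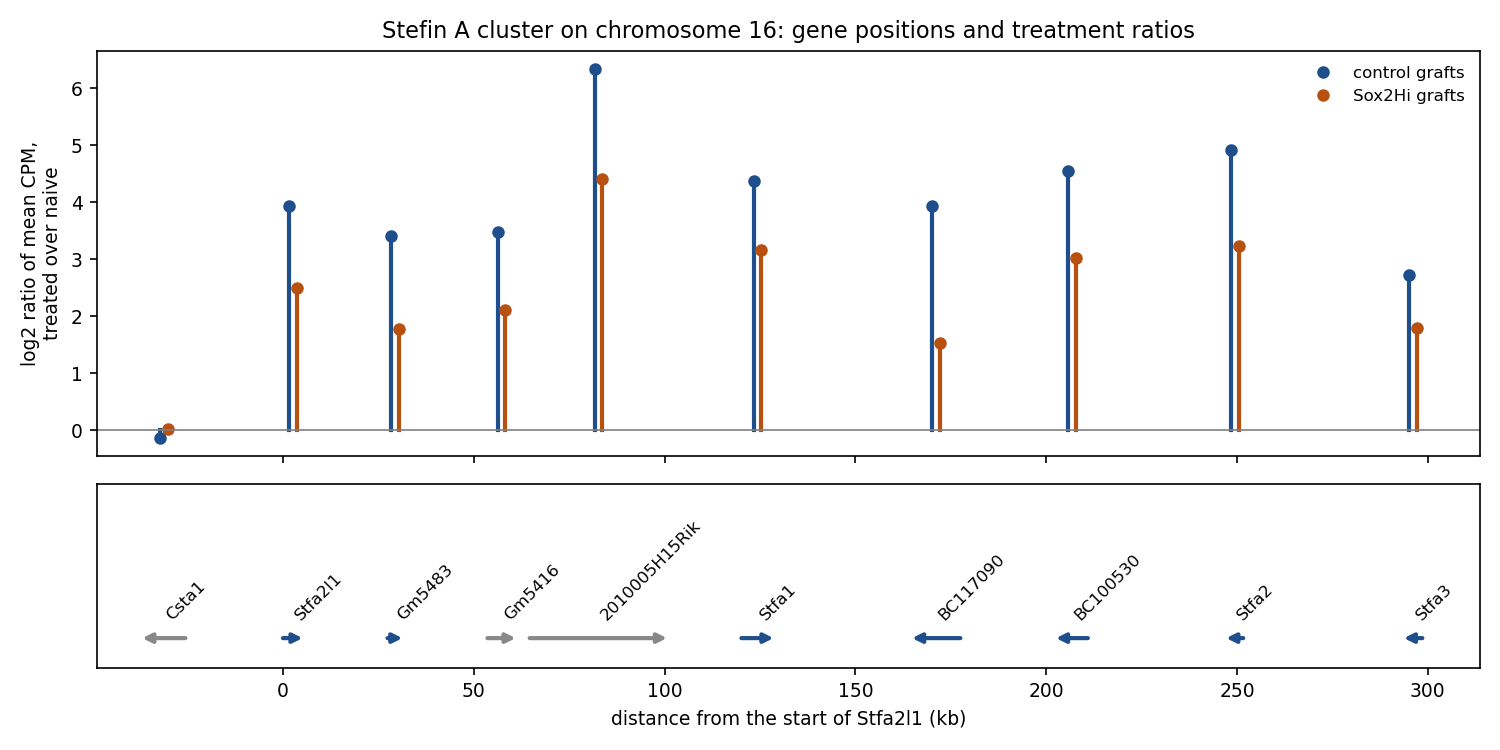
Upper panel: log2 ratio of mean CPM, treated over naive, in control (blue) and Sox2Hi (orange) tumours, drawn beside the midpoint of each gene. Lower panel: genes along chromosome 16 by distance from the start of Stfa2l1 in kb, with arrows for the direction of transcription and members in blue. In control tumours the log2 ratios run from 2.73 (Stfa3) to 6.34 (2010005H15Rik) for the genes drawn from Stfa2l1 to Stfa3, each is smaller in Sox2Hi tumours, and Csta1, outside the array, is at -0.13 and 0.03.

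Neighbouring genes that were not members were also measured, with the array taken as the span from the first to the last member. 2010005H15Rik, which lies within the array, went from 5.47, 4.43 and 5.18 CPM in naive control to 503 and 310.5 CPM in treated control, and from 6.85, 3.35 and 2.95 CPM in naive Sox2Hi to 112 and 74.5 CPM in treated Sox2Hi. Its log2 fold changes, 6.33 (SE 0.38) and 4.41 (SE 0.36), were above those of each fitted member in the same comparison. Gm5416, which RefSeq names Csta3, lies beside it and had 3.49 (SE 0.34) and 2.10 (SE 0.34). Smaller changes were seen within the array in 2 pseudogenes with few counts. Gm4758 (3 to 14 counts per library) had means 1.94 and 1.29 times higher after treatment in control and Sox2Hi tumours, with overlap. Gm6815 (12 to 70 counts) had means 1.99 and 2.28 times higher, without overlap. Csta1 lies just outside the array and encodes another stefin A-like protein. It was at 9.81, 4.37 and 11.3 CPM in naive control, 6.33 and 9.19 CPM in treated control, 5.43, 3.73 and 3.34 CPM in naive Sox2Hi, and 4.77 and 3.72 CPM in treated Sox2Hi. After treatment Csta1 had log2 fold changes of -0.13 (SE 0.37) in control and 0.03 (SE 0.38) in Sox2Hi tumours, which were not called and whose sign turned in other settings. Between grafts Csta1 was lower in Sox2Hi, at -1.03 (SE 0.33) in naive tumours with overlapping libraries and -0.87 (SE 0.42) in treated tumours without overlap. Neither was called by edgeR in the fit of all 10 libraries with only the 4 groups as terms. DESeq2 and limma-voom called the naive difference, as did edgeR with a block for the title number in the naive libraries alone. The treated difference was called by edgeR with a block for the description number (-1.27) and without naive control replicate 2 (-0.87). In the naive control libraries Csta1, Stfa3, BC100530, Stfa2, BC117090 and 2010005H15Rik were lowest in replicate 2, where the keratinocyte markers summed to 1144 CPM against 2035 and 3249 CPM in replicates 1 and 3. Gm5483, Stfa2l1, Stfa1, Gm5416 and Cstb were instead lowest in replicate 3, where that sum was highest. The part of keratinocyte RNA in these levels was not tested.

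The makeup of the cluster's counts differed between naive and treated libraries. Gm5483 held 60.3, 61.5 and 56.1% of the 7 members' counts in naive control and 44.9 and 48.6% in treated control. It held 66.4, 64.0 and 65.2% in naive Sox2Hi and 49.0 and 50.1% in treated Sox2Hi, so its share was lower in every treated library than in any naive one. Stfa1 held 5.47 to 9.83% of the counts in the 6 naive libraries and 10.9 to 13.5% in the 4 treated ones. Stfa2 held 0.725 to 1.25% in naive and 1.95 to 2.37% in treated libraries, again without overlap. The share of BC100530 overlapped, at 3.57 to 13.2% in naive control and 10.9 and 15.9% in treated control, and was 4.15 to 4.85% in naive Sox2Hi and 6.17 and 10.03% in treated Sox2Hi. Shares of 1 sum are not independent of each other, and the copies share sequence, so how reads were divided between them bears on each share.

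**Figure D3:**
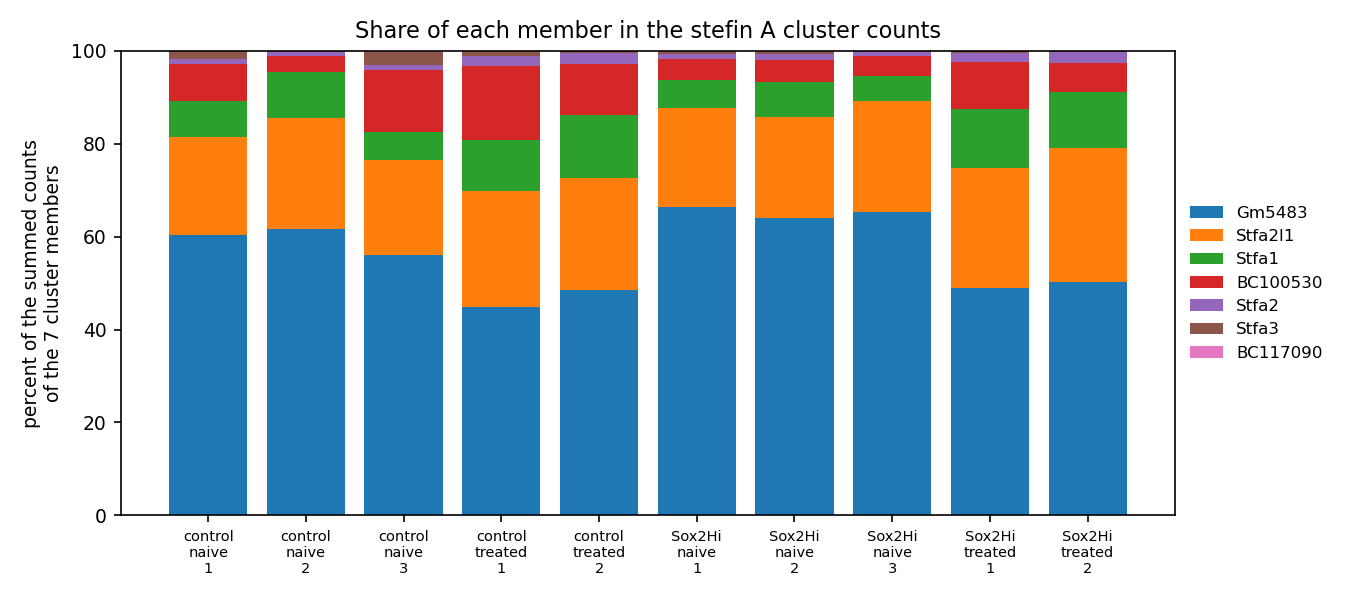
Percent of the summed counts of the 7 stefin A cluster members held by each member, in stacked bars for the 10 libraries. Gm5483 takes 56.1 to 66.4% in naive libraries and 44.9 to 50.1% in treated ones, where the bands of Stfa1 and Stfa2 are wider.

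Between treated tumours, every member was lower in Sox2Hi than in control. BC100530 had the log2 fold change furthest below 0 among the fitted members, -2.54 (SE 0.56), a 5.82-fold lower level, with 54.6 and 31.4 CPM against 327 and 174 CPM. Stfa2 was at -1.91 (SE 0.35), Stfa1 at -1.75 (SE 0.39), Gm5483 at -1.70 (SE 0.37) and Stfa2l1 at -1.64 (SE 0.34). Cstb was at -0.99 (SE 0.26). The means of Stfa3 and BC117090 were 7.39 and 4.26 times lower, that of Stfa3 3.37 times without treated control replicate 1 and 11.4 times without replicate 2. No member's libraries overlapped, against 34.1% of genes lower without overlap. All 6 fitted members were called lower, as were 10.1% of all genes, with a median of -1.72 against -0.070 over all genes. Because the family was chosen by BC100530 in this very comparison, its count and median were partly fixed by that choice and are no evidence about the family. The calls rest on 2 libraries in each group. Without treated Sox2Hi replicate 1 none of the 6 was called, and without treated Sox2Hi replicate 2, treated control replicate 1 or treated control replicate 2, 3 were. Cstb was also not called without naive control replicate 1 or any 1 of the naive Sox2Hi libraries, with library totals alone (-0.62) or in a fit of only the groups compared (-0.89). Over all libraries left out in turn, BC100530 ran from -2.99 to -1.98 and Stfa2 from -1.91 to -1.73, whereas Cstb ran from -1.39 to -0.57. Among the neutrophil markers 6 of 12 were also called lower, with a median of -0.97, as was 1 of 10 macrophage and dendritic cell markers (-0.15). Called higher in Sox2Hi were 2 of 3 mast cell markers (median 2.81), 1 of 6 fibroblast and endothelial markers (1.01) and 1 of 12 keratinocyte markers (-0.074). No erythroid marker was called (median -2.15). Under the all-gene scaling all 8 members were called lower, as were 9.62% of 29648 genes.

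**Figure D4:**
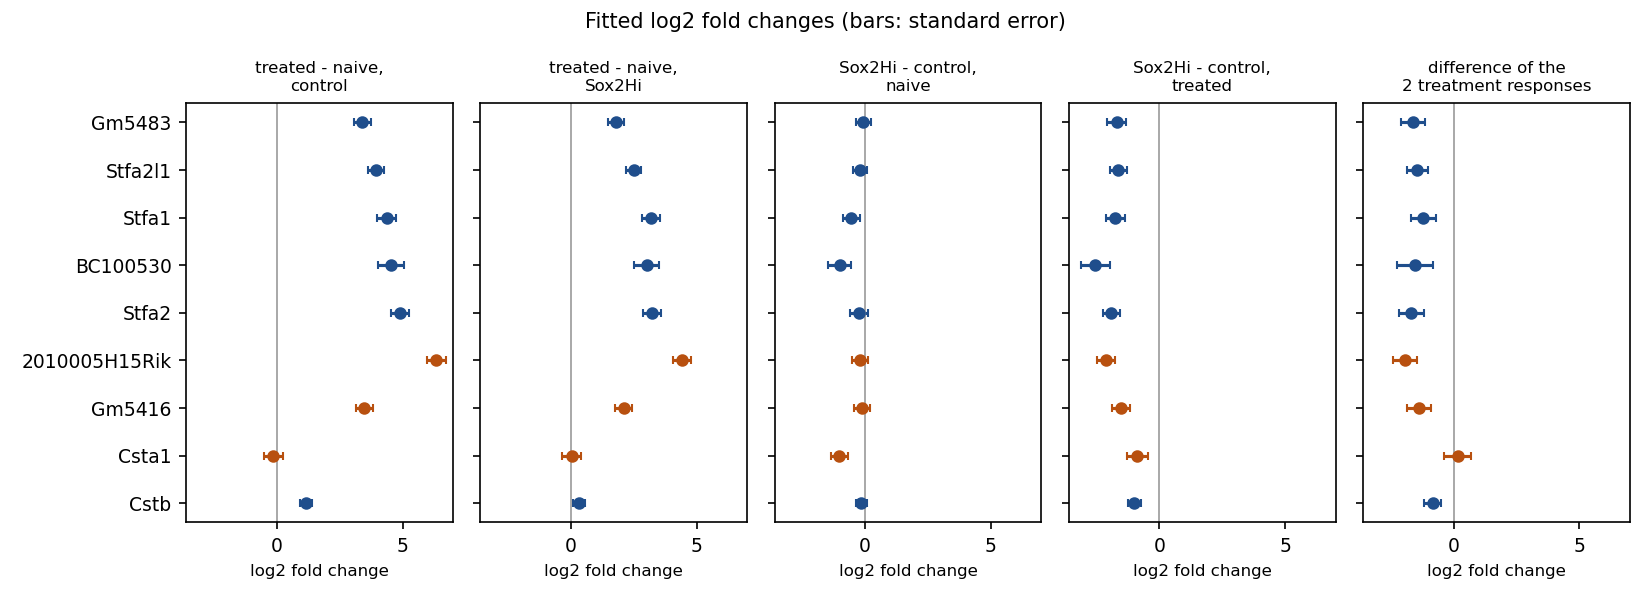
Fitted log2 fold changes (points) with standard errors (bars) for the 6 fitted members (blue) and 3 neighbouring genes (orange) in 5 comparisons, on a shared horizontal axis. Members lie to the right of 0 in both treatment comparisons, close to 0 between naive grafts for most genes, and to the left between treated grafts, with -2.54 for BC100530.

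The difference between the treatment responses contains the comparison of treated tumours by which the family was chosen, so it too is a description. By the interaction term 3 of the 6 fitted members were called lower in Sox2Hi, as were 9.11% of genes. Stfa2 had a difference of -1.68 (SE 0.49), Gm5483 of -1.63 (SE 0.47) and Stfa2l1 of -1.44 (SE 0.43) on the log2 scale. BC100530 at -1.53 (SE 0.71), Stfa1 at -1.20 (SE 0.50) and Cstb at -0.84 (SE 0.34) were not called. The block by title number called BC100530 and Stfa1 as well, the block by description number Stfa1, and DESeq2 Stfa1 and Cstb. The count was 5 of 6 by the title block, 4 by the description block, 5 by DESeq2 and 1 by limma-voom. Of all 11274 genes these fits called 1619, 720, 1708 and 1562 lower. The members' count was 7 of 8 under the all-gene scaling, where 16.3% of genes were called lower. With library totals alone it was 0 of 6, where 136 of 11274 genes were called lower. It was 0 without naive control replicate 2 or 3, either treated control library, naive Sox2Hi replicate 1 or treated Sox2Hi replicate 1, and 2 without naive Sox2Hi replicate 2. Without treated Sox2Hi replicate 2 none of those 3 genes was called, and Cstb was, at -1.23. The neutrophil markers had a median interaction of -1.01, with none of 12 called.

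In naive tumours the levels of all 8 genes overlapped between the grafts, where 16.9% of genes were higher and 17.6% lower in Sox2Hi without overlap. Log2 fold changes of Sox2Hi over control were -0.08 (SE 0.30) in Gm5483, -0.15 (SE 0.21) in Cstb, -0.20 (SE 0.28) in Stfa2l1 and -0.23 (SE 0.36) in Stfa2. They were -0.55 (SE 0.33) in Stfa1 and -1.01 (SE 0.47) in BC100530, and the mean of Stfa3 was 3.88 times lower in Sox2Hi. BC117090 went the other way, with a mean 1.24 times higher in Sox2Hi from 0 to 8 counts per library and 0.667 times the control mean without naive Sox2Hi replicate 1, and under the all-gene scaling it was at 0.51. No fitted member was called by edgeR, against 11.8% of all genes called in either direction, and 0 of 6 had an unadjusted p under 0.05. Under the all-gene scaling 0 of 8 were called, with 1 at an unadjusted p under 0.05, against 1.88% of genes called. When same-numbered naive libraries were paired by a replicate block, Stfa1 was called lower in Sox2Hi (-0.56), where the block called 16.8% of all genes in either direction. Limma-voom with quality weights called Stfa1 (-0.82) and BC100530 (-1.39) and 37.0% of all genes. The 16 keratinocyte markers summed to 1144 to 3249 CPM in control and 1572 to 1873 CPM in naive Sox2Hi libraries.

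Set against neutrophil transcripts, the cluster and stefin B differed. For each 100 counts of the 12 neutrophil markers, a denominator chosen after seeing the data, the cluster had 0.972, 0.588 and 0.804 counts in naive control and 4.53 and 3.73 in treated control. It had 0.953, 0.550 and 0.616 in naive Sox2Hi and 2.49 and 2.31 in treated Sox2Hi. The ratio was thus higher in every treated than in every naive library, with means 5.24 times higher in control and 3.40 times higher in Sox2Hi tumours. Between treated tumours it was 1.72 times lower in Sox2Hi, against 3.46 times lower in CPM, and the libraries still did not overlap. BC100530 was 2.87 times lower on this measure, and Stfa1, Stfa2, Stfa2l1 and Gm5483 between 1.55 and 1.87 times lower. BC117090 was 2.12 times lower. Stfa3 was 3.62 times lower, 1.72 times without treated control replicate 1 and 5.53 times without replicate 2. Its treated and naive control libraries overlapped on this measure, with means 2.26-fold apart and 1.07-fold without treated control replicate 1. Cstb had 3.64, 2.81 and 4.36 counts for each 100 marker counts in naive control, 2.42 and 3.74 in treated control, 3.19, 3.21 and 3.99 in naive Sox2Hi, and 2.25 and 3.94 in treated Sox2Hi. The 4 groups overlapped in Cstb. Among the 12 markers Il1r2 had the highest CPM in every library and so weighed most in the ratio. It was at 8477 to 14152 CPM in naive control, 15770 and 19776 CPM in treated control, 8222 to 11204 CPM in naive Sox2Hi, and 10805 and 10752 CPM in treated Sox2Hi. The marker genes themselves changed with treatment, among them S100a8 and S100a9, so the ratio does not count cells.

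**Figure D5:**
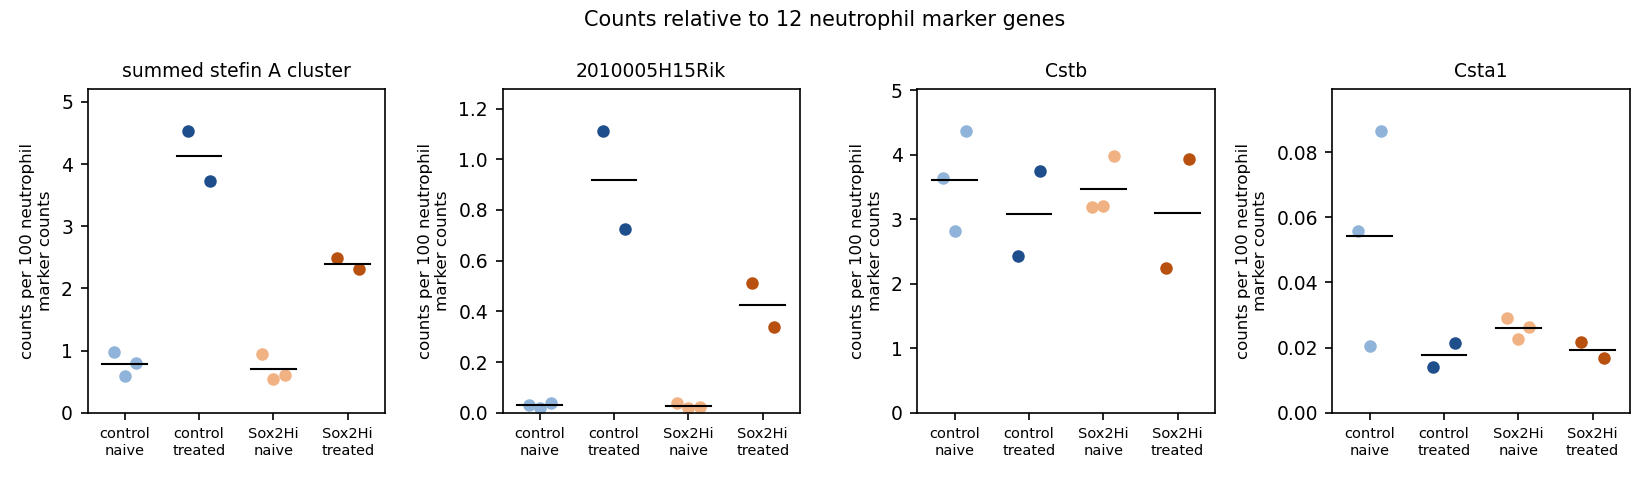
Counts of the summed cluster, 2010005H15Rik, Cstb and Csta1 for each 100 counts of the 12 neutrophil markers (vertical axes start at 0), with 1 point per library and a line at the group mean. The summed cluster is at 0.550 to 0.972 in naive libraries, 2.31 and 2.49 in treated Sox2Hi and 3.73 and 4.53 in treated control libraries, while the groups of Cstb overlap.

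Some genes on the list of granule protein and neutrophil precursor markers were also higher after treatment. The 6 fitted were all called higher in control and 5 in Sox2Hi tumours, against 28.7% and 11.8% of all genes. In treated control, Ngp was at 371 and 378 CPM and Chil3 at 335 and 276 CPM. Mpo was at 1.52 to 2.87 CPM in naive and 1.41 and 1.44 CPM in treated control, and Elane at 0 to 0.913 CPM over all libraries. The 10 genes of that list summed to 65.3 to 124 CPM in naive control, 898 and 902 CPM in treated control, 68.2 to 137 CPM in naive Sox2Hi, and 281 and 726 CPM in treated Sox2Hi. Of the treated Sox2Hi libraries, replicate 2 was the higher in this sum. The summed stefin A cluster was at 544 and 509 CPM in those libraries and Cstb at 492 and 867 CPM. The part of neutrophil maturity in the stefin levels was not tested.

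Among the papain-like cysteine cathepsins, the protease family that stefins inhibit, several rose after treatment. The list of 11 genes also held Lgmn, the gene of legumain, a cysteine protease of another family, and 9 of the 11 were fitted, Lgmn among them. In control tumours 6 of the 9, all of them cathepsins, rose and none fell, against 28.7% of all genes higher, with Ctsc (cathepsin C, the activator of neutrophil serine proteases) at 2.05 (SE 0.29, edgeR adjusted p 0.00035), Ctss at 1.85 (SE 0.25) and Ctsb at 1.39 (SE 0.23). Ctsz, Ctsh and Ctso also rose, and the list's median was 0.91. With library totals alone Ctsh (0.28) and Ctso (0.19) were not called, nor was Ctso without treated control replicate 1 (0.52). In Sox2Hi tumours 4 of the 9 were called higher, Ctsc (1.24, SE 0.29), Ctss (1.24, SE 0.25), Ctsz and Ctso, with a median of 0.33, against 11.8% of all genes higher. Under the all-gene scaling Ctsc (1.05), Ctsz (0.66) and Ctso (0.41) were not called. Ctsz and Ctso were also not called with library totals alone (0.56 and 0.34) or the replicate block by title number (0.73 and 0.55). The sum of the macrophage and dendritic cell markers moved with these genes. It was 7225 to 10821 CPM in naive control and 19423 and 19959 CPM in treated control. In Sox2Hi tumours it was 7555 to 11075 CPM in naive and 9913 and 23445 CPM in treated libraries. Cd74 made up most of it, at 5003 to 7618 CPM in naive control and 14173 and 15329 CPM in treated control. H2-Ab1 came next, at 1447 to 2026 CPM and 3488 and 3492 CPM. Cd68 was at 160 to 237 CPM in naive control and 759 and 618 CPM in treated control. Apoe overlapped, at 409 to 652 CPM and 528 and 272 CPM. Of the 10 macrophage and dendritic cell markers fitted, 4 were called higher in control and 1 in Sox2Hi tumours and none lower. In the treated Sox2Hi libraries Ctsc was at 712 and 1533 CPM and Ctss at 1554 and 2449.8 CPM. Both were higher in replicate 2, like the sum of those markers, whose part in the cathepsin levels was not tested. The count of 4 in Sox2Hi tumours was 0 without treated Sox2Hi replicate 2 and 1 without naive Sox2Hi replicate 3, and 2 without either naive control replicate 1 or naive Sox2Hi replicate 2. Between naive tumours none of the 9 was called by edgeR, with 0 at an unadjusted p under 0.05, and limma-voom called 1. Between treated tumours edgeR called 0 of the 9 with 6 at an unadjusted p under 0.05 and a median of -0.58. DESeq2 called 5, and of all 11274 genes it called 1318 higher and 1823 lower. The replicate block by title number called 4, and 1684 of all genes higher and 1668 lower. The all-gene scaling called 7 of 11 lower, as were 9.62% of 29648 genes. Ctsb was the only cathepsin with a called interaction (-1.06, SE 0.33, edgeR adjusted p 0.040), and it lost the call without any 1 of 8 of the 10 libraries. Over the treated groups Ctsb was at 1761 and 1147 CPM in control and 807 and 1066 CPM in Sox2Hi tumours, so its libraries did not overlap.

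Among other protease inhibitors, 3 genes of the whey acidic protein family moved in the same directions as the cluster. Slpi, the secretory leukocyte protease inhibitor, rose by 2.03 (SE 0.26, edgeR adjusted p 0.00023) in control tumours, and Wfdc17 (3.17, SE 0.31) and Wfdc21 (3.45, SE 0.39) rose with it. All 3 genes rose in Sox2Hi tumours too, Slpi by 0.84 (SE 0.26, edgeR adjusted p 0.044). That call of Slpi was lost in 12 alternatives, among them the all-gene scaling (0.65), library totals alone (0.56), only the groups compared (0.83) and 7 of the 10 libraries left out in turn. All 3 were lower in Sox2Hi than in treated control tumours, at -1.10, -1.30 and -1.43. None of these 3 was called between treated tumours when any 1 of the 4 treated libraries was left out. Of the 11 inhibitors listed, all were fitted, 4 were called higher and 2 lower in control tumours, and 3 higher and 1 lower in Sox2Hi tumours. Over all genes, 28.7% were called higher and 27.8% lower in control tumours, and 11.8% and 8.23% in Sox2Hi tumours. The fourth called higher in control tumours was Cast, the calpain inhibitor calpastatin (0.43, SE 0.15), whose sign turned with library totals alone (-0.21) and which lost the call without any 1 of 9 of the 10 libraries. The 2 called lower in control tumours were Timp1 (-1.78, SE 0.29), an inhibitor of matrix metalloproteinases, and Serpinb6a (-0.82, SE 0.26), which was not called under the all-gene scaling (-0.42) or without treated control replicate 1 (-0.75). Timp1 also fell in Sox2Hi tumours (-1.41, SE 0.28), a call lost without treated Sox2Hi replicate 2 (-1.29). Of 10 other cystatins only Cst3 and Cst6 were expressed enough to be fitted. Cst3, the gene of cystatin C, rose by 0.71 (SE 0.19, edgeR adjusted p 0.0087) in control tumours and was not called without naive control replicate 3 or treated control replicate 2, or with library totals alone (0.071). Cst6 was not called, with 79.1 and 2.94 CPM in the 2 treated control libraries.

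Across the 10 libraries, the genes whose log2(CPM + 1) followed the summed cluster most closely among 7072 genes that averaged 10 CPM or more were S100a9 (Pearson r 0.997), Wfdc17 (0.995), Pfkfb3 (0.995) and Wfdc21 (0.994). Nod1, Ifitm1, Mgst1 and Hsd11b1 followed at 0.993 to 0.994. S100a9, a subunit of calprotectin, was at 1097 CPM in naive control, 7350.2 in treated control, 911 in naive Sox2Hi and 2660.5 in treated Sox2Hi on average. Cstb correlated with the cluster at 0.822, and the genes most like Cstb were others: Ier5 (0.983), Clk4 (0.981) and Abracl (0.979), then Ier3ip1, Ost4, Selenok, Serf2 and Vamp3 at 0.974 to 0.976. These correlations describe 10 libraries that fall into naive and treated sets, and all values in a library share its scaling.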

How the data were processed

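RNA of neutrophils was sequenced in 10 libraries made with a low-input kit, per the labels' protocols. The authors deposited whole-number counts per gene, which were treated here as estimated counts because the notes name a tool that estimates them. The submitters' processing notes name kallisto 0.44.0 and mm10, without giving their roles, and strand is not given in the sources used here. The 96 entries that are not mouse genes (0.000992 to 0.00277% of counts) were left out. Gene symbols and positions are those of GENCODE M21 (GRCm38).

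All 10 libraries were fitted in edgeR 4.0.16 (R 4.3.3, quasi-likelihood test) with the 4 groups as terms, on 11274 genes averaging 5 CPM or more, with TMM factors from them. Genes were called at a Benjamini-Hochberg adjusted p under 0.05. The common biological coefficient of variation was 0.213. Members and gene lists were chosen with earlier results of these data known. Named are all members, their neighbours, list genes that were tested, and the 8 genes most like the cluster and Cstb, without Gm and Rik names. Counts of replicate libraries differed beyond sampling noise (smallest chi-square per degree of freedom 12.5). Deviations from group means of naive libraries with the same title number correlated at 0.273, 0.324 and 0.474, which paired these libraries. The pairing rests on the data, because no label explains the numbering. Alternatives used limma 3.58.1, DESeq2 1.42.0, other scalings, filters, blocks and a covariate of Ddx3y reads, and left out each library. Ddx3y had 4 to 8 counts in replicate 1 of naive control, treated control and naive Sox2Hi and in replicate 2 of treated Sox2Hi. It had 1007 to 6618 counts in the other libraries, so the libraries of every group differed in it.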

Additional observations from a re-analysis of the deposited data

Results flagged for a closer look

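The treatment response, treated over naive, differed between the grafts by the interaction term of the fit in 6 genes described above. It was smaller in Sox2Hi tumours by a log2 difference of -1.93 in 2010005H15Rik, -1.68 in Stfa2, -1.63 in Gm5483, -1.44 in Stfa2l1, -1.19 in Slpi and -1.06 in Ctsb. The call of Slpi was lost with library totals alone, limma-voom and the replicate block by description number, and without any 1 of 9 of the 10 libraries. That of Ctsb was lost with library totals alone, the same block and any 1 of 8 libraries left out, and that of 2010005H15Rik without treated control replicate 1 (-1.49) or treated Sox2Hi replicate 2 (-1.57). The means of 2010005H15Rik were 80.9 times higher after treatment in control and 21.3 times higher in Sox2Hi tumours. Among these 6 genes, Stfa2, Gm5483 and Stfa2l1 belong to the set chosen with results of these data known. The sum of 12 neutrophil markers also differed, with treated libraries at 42845 to 45282 CPM in control and 21862 to 22024 CPM in Sox2Hi tumours, and its part in these differences was not tested. Groups of 2 and 3 libraries were too small to look for a single library far from the others.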

How the results depend on the processing

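The direction of every fitted member was kept in all alternatives run after treatment of control tumours, between treated tumours and in the interaction, and in Sox2Hi tumours except for Cstb, which ran from -0.16 to 0.67 as single libraries were left out. The ratio to neutrophil markers is set apart from this: on it Cstb turned to a log2 ratio of -0.23 after treatment of control tumours, -0.16 in Sox2Hi tumours and 0.0056 between treated tumours. Single-gene values were counted apart for fits with 1 library left out and for all other settings, some of which fitted only part of the libraries. In the other settings 630 stayed on their side of the threshold, 39 lost the call, 22 gained it and 17 turned sign, and with 1 library left out these numbers were 584, 111, 3 and 12. The all-gene scaling moved the median of all genes to -0.30 after treatment of control tumours, 0.13 between treated tumours and 0.22 in the interaction. There, between naive tumours, Stfa2 was at 0.031, Stfa2l1 at 0.082, Gm5483 at 0.20, Cstb at 0.13, 2010005H15Rik at 0.069 and Gm5416 at 0.16, and Csta1 was at 0.27 and -0.17 after treatment of control and Sox2Hi tumours and at -0.44 in the interaction. Csta1 was also at -0.23 (library totals) and -0.0067 (RLE factors and DESeq2) in Sox2Hi tumours, and Cast at -0.21 (library totals) in control tumours.

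The replicate block by title number called 1 member between naive tumours (1 from the naive libraries alone) and 5 in the interaction. With it, 2 cathepsins were called in Sox2Hi tumours and 4 between treated tumours, 1 inhibitor between naive tumours (2 from the naive libraries alone) and 3 in the interaction, and Csta1 was at 0.023 in control tumours. The block by description number gave 1 cathepsin between treated tumours, 0 cathepsins and 0 inhibitors in the interaction, and put Csta1 at 0.089, -0.21 and -0.30 in control tumours, Sox2Hi tumours and the interaction.

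Counts of calls moved as follows, and the cause was not tested. Members in the interaction were 7 (all-gene scaling), 0 (library totals), 5 (DESeq2) and 1 (limma-voom), and limma-voom called 2 between naive tumours. Cathepsins in Sox2Hi tumours were 1 (all-gene scaling), and limma-voom called 1 between naive tumours. Between treated tumours they were 7 (all-gene scaling), 1 (RLE factors), 5 (DESeq2) and 3 (Ddx3y covariate), and in the interaction 7 (all-gene scaling), 0 (library totals) and 2 (Ddx3y covariate). Other cystatins in control tumours were 2 (all-gene scaling), 0 (library totals) and 5 (every gene with a count), and the all-gene scaling called 1 between treated tumours and 1 in the interaction. Inhibitors between naive tumours were 1 (DESeq2) and 3 (limma-voom). Between treated tumours they were 1 (library totals), 0 (limma-voom) and 1 (only the groups compared), and in the interaction 4 (all-gene scaling), 0 (library totals), 2 (DESeq2) and 0 (limma-voom). The log2 ratio of the summed cluster after treatment of control tumours was 4.18 (all-gene scaling), 3.13 (library totals), 4.17 (without Gm5483) and 2.39 (against neutrophil markers), against 3.77. Between treated tumours it was -2.12 (all-gene scaling), -1.38 (library totals) and -0.78 (against neutrophil markers), against -1.79, and against neutrophil markers the interaction was -0.62.

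With 1 library left out at a time, members called ranged from 0 to 6 between treated tumours and from 0 to 3 in the interaction. Cathepsins called ranged from 0 to 4 in Sox2Hi tumours, 0 to 2 between treated tumours and 0 to 3 in the interaction. Other cystatins ranged from 0 to 2 in control tumours, 0 to 1 between treated tumours and 0 to 1 in the interaction, and inhibitors from 2 to 6 in Sox2Hi tumours, 0 to 4 between treated tumours and 0 to 1 in the interaction. Between naive tumours Stfa2 ran from -0.77 to 0.049, Gm5483 from -0.63 to 0.13 and Gm5416 from -0.59 to 0.043. Csta1 ran from -0.57 to 0.054 in control tumours, -0.17 to 0.32 in Sox2Hi tumours and -0.035 to 0.59 in the interaction. With 2 treated libraries in a group, leaving out 1 assumes that the other varies like the rest. Counts of BC117090, from 0 to 39, limit its precision.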
